A study of Mus musculus with 26 samples.

Results

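Gstm1 to Gstm7 encode the mu class of glutathione transferases in the mouse. They were taken from the deposited table of gene read counts as the rows whose Ensembl identifier, without its version, maps to those symbols, which gave 7 genes of 47643. The table covers 26 mouse liver RNA-seq libraries in 10 groups, and each of the 5 treated or mutant groups was compared with its own control. The title of the study names drug metabolism in cholestatic livers, in which bile flow is impaired, as its subject.

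The TCPOBOP experiment used whole liver of wild-type C57BL/6J mice at 8 weeks of age, fed ad libitum, with 2 libraries after TCPOBOP and 2 after corn oil. TCPOBOP is an agonist of the nuclear receptor CAR (gene Nr1i3). The titles of its libraries give 36 hours and the source labels give 6 hours, so the time is uncertain. The knockout experiment used whole liver of C57BL/6J mice at 12 weeks, fed ad libitum, with 3 libraries of Fxr-/- Shp-/- mice and 3 of wild type. FXR (gene Nr1h4) is the nuclear receptor for bile acids, and SHP (gene Nr0b2) is a repressor that it induces. Whole livers of C3H/HeN mice aged 8 to 10 weeks and fed ad libitum were taken at 48 h after partial hepatectomy (3 libraries) or as sham livers at 0 h (3 libraries), so surgery and time differ together. Isolated hepatocytes came from wild-type C57BL/6J mice at 16 weeks, fasted for 10 h, on a 60% fat diet (2 libraries) or chow (2 libraries). In the cholic acid experiment all 6 mice were C57BL/6J, carried floxed Fxr and Shp alleles with no Cre named, were 10 to 12 weeks old and were fasted for 8 to 10 h. Of these, 3 gave whole liver after a diet with cholic acid, a primary bile acid, and 3 after chow. The labels do not state that libraries of a group came from separate animals, so p-values measure the spread between these libraries. In bulk liver, fewer cells of a type and less RNA per cell cannot be told apart.

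Glutathione transferases join the tripeptide glutathione to electrophilic compounds, which makes drugs, toxins and products of lipid oxidation more soluble and ready for export. The soluble enzymes fall into classes (alpha, mu, pi, theta and others), and mu class subunits form dimers with each other. In mouse liver, agonists of CAR and activators of the oxidative stress factor NRF2 (gene Nfe2l2) are known to raise several of them.

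The 7 genes lie together on mouse chromosome 3. In GENCODE M21 (GRCm38), whose gene identifiers and versions match those of the count table, the span from the outermost ends is chr3:107895821-108044894, 149 kb. It holds 17 annotated genes, of which 7 are protein coding, all of them Gstm genes, and 7 are pseudogenes. Gstm5 (ENSMUSG00000004032.10, chr3:107895821-107898686) is on the plus strand. The other 6 are on the minus strand: Gstm7 (ENSMUSG00000004035.12, chr3:107926334-107931817), Gstm6 (ENSMUSG00000068762.11, chr3:107938847-107943749), Gstm3 (ENSMUSG00000004038.9, chr3:107963696-107969283), Gstm2 (ENSMUSG00000040562.12, chr3:107981702-107986453), Gstm1 (ENSMUSG00000058135.12, chr3:108012255-108017973) and Gstm4 (ENSMUSG00000027890.17, chr3:108040408-108044894).

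Their coding sequences are close relatives, which bears on how reads can be given to each gene. The starts of the 7 coding sequences are shown 5′ to 3′ to make that likeness visible, with bases 1 to 60 for each gene except Gstm5, whose bases 10 to 69 align with them. Capitals mark the bases that differ from Gstm1 at the same place.
Gstm1: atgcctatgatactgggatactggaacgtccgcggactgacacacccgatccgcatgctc
Gstm2: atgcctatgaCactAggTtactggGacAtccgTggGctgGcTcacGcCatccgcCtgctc
Gstm3: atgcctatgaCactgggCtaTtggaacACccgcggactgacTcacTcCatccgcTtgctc
Gstm4: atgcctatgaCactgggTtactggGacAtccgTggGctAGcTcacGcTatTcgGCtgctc
Gstm5: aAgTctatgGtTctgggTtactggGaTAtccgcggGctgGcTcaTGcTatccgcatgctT
Gstm6: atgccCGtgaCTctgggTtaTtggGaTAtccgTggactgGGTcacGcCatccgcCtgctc
Gstm7: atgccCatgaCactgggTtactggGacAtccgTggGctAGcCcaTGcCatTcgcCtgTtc

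Gstm3 differed from Gstm1 at 9 of these bases, fewer than any other member. Over the whole coding sequence Gstm1 and Gstm3 were 89.5% identical, the highest value of any pair, and Gstm5 was 70.4% to 73.0% identical to the others. Gstm1 and Gstm3 share an unbroken run of 112 bases at coding bases 389 to 500, shown because a shorter read that falls inside it matches both genes.
Gstm1 and Gstm3: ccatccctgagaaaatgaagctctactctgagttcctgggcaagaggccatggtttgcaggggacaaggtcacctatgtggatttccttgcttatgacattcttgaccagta
Gstm3 and Gstm6 share a longer run, of 125 bases. Of all 50-base stretches of the annotated transcripts, 71.2% were found in no other gene for Gstm3 and 81.1% for Gstm1, against 90.6% for Gstm5, 94.0% for Gstm6, 94.3% for Gstm2, 99.5% for Gstm7 and 100% for Gstm4. For 100-base stretches the lowest values were 86.2% for Gstm3 and 94.1% for Gstm1. The read length is not given in the sources used here, so levels of Gstm1 and Gstm3 are the least certain as single genes. Exons of Gstm5 overlap 178 bases of the antisense gene 4933431E20Rik. Stretches were matched on both strands, and all 129 shared 50-base stretches of Gstm5 are with that gene. It lies at the same place on the opposite strand, so the 90.6% of Gstm5 is unlike the values of the other members.

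The libraries held 13949059 to 70367874 reads counted to genes, and 16.6% to 44.1% of all reads aligned to more than 1 place. That share was 43.2% to 44.1% in the wild-type libraries of the knockout experiment and 25.5% to 26.9% in the knockout libraries, against 16.6% to 25.1% in all others. In the Fxr-/- Shp-/- libraries Nr0b2 had 13, 25 and 39 counts, against 280, 446 and 226 in wild type. Nr1h4 still had 1421, 1198 and 1356 counts, against 2846, 2546 and 1941. The library labelled corn oil 1 stood apart from its label: the CAR target Cyp2b10 reached 3786 CPM there and 10.3 CPM in the other control library, while the TCPOBOP libraries had 3465 and 3079 CPM. Hepatocyte markers (Alb, Ttr, Apoa1, Hnf4a and Tat) were detected in every group.

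All 7 genes were detected in every library. The lowest level was that of Gstm5 in wild type 1, at 3.06 CPM (read counts scaled to a common library size by TMM within each experiment), where 3 counts amount to at most 0.215 CPM. Per kilobase of exon, Gstm1, a major mu class transferase of mouse liver, was the highest of the 7 in every group mean and Gstm5 the lowest. On this scale Gstm3 held the next place after Gstm1 in 8 of the 10 groups. It stood behind Gstm6, Gstm7 and Gstm4 in the isolated hepatocytes of chow-fed mice. The length counts all annotated exon bases, 1989 for Gstm6, 1679 for Gstm2 and 1311 for Gstm3. Their longest transcripts have 1179, 1064 and 1311 bases. With transcript lengths Gstm6 and Gstm2 gain on Gstm3, so the places below Gstm1 depend on the length used. Gstm1 stood clear of the gene below it in 8 groups, and its library values overlapped those of Gstm3 in the corn oil and TCPOBOP groups. Below them the order was less settled: in the chow-fed floxed mice, the neighbours from Gstm3 through Gstm6, Gstm2 and Gstm7 to Gstm4 each overlapped the next.

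**Figure D1:**
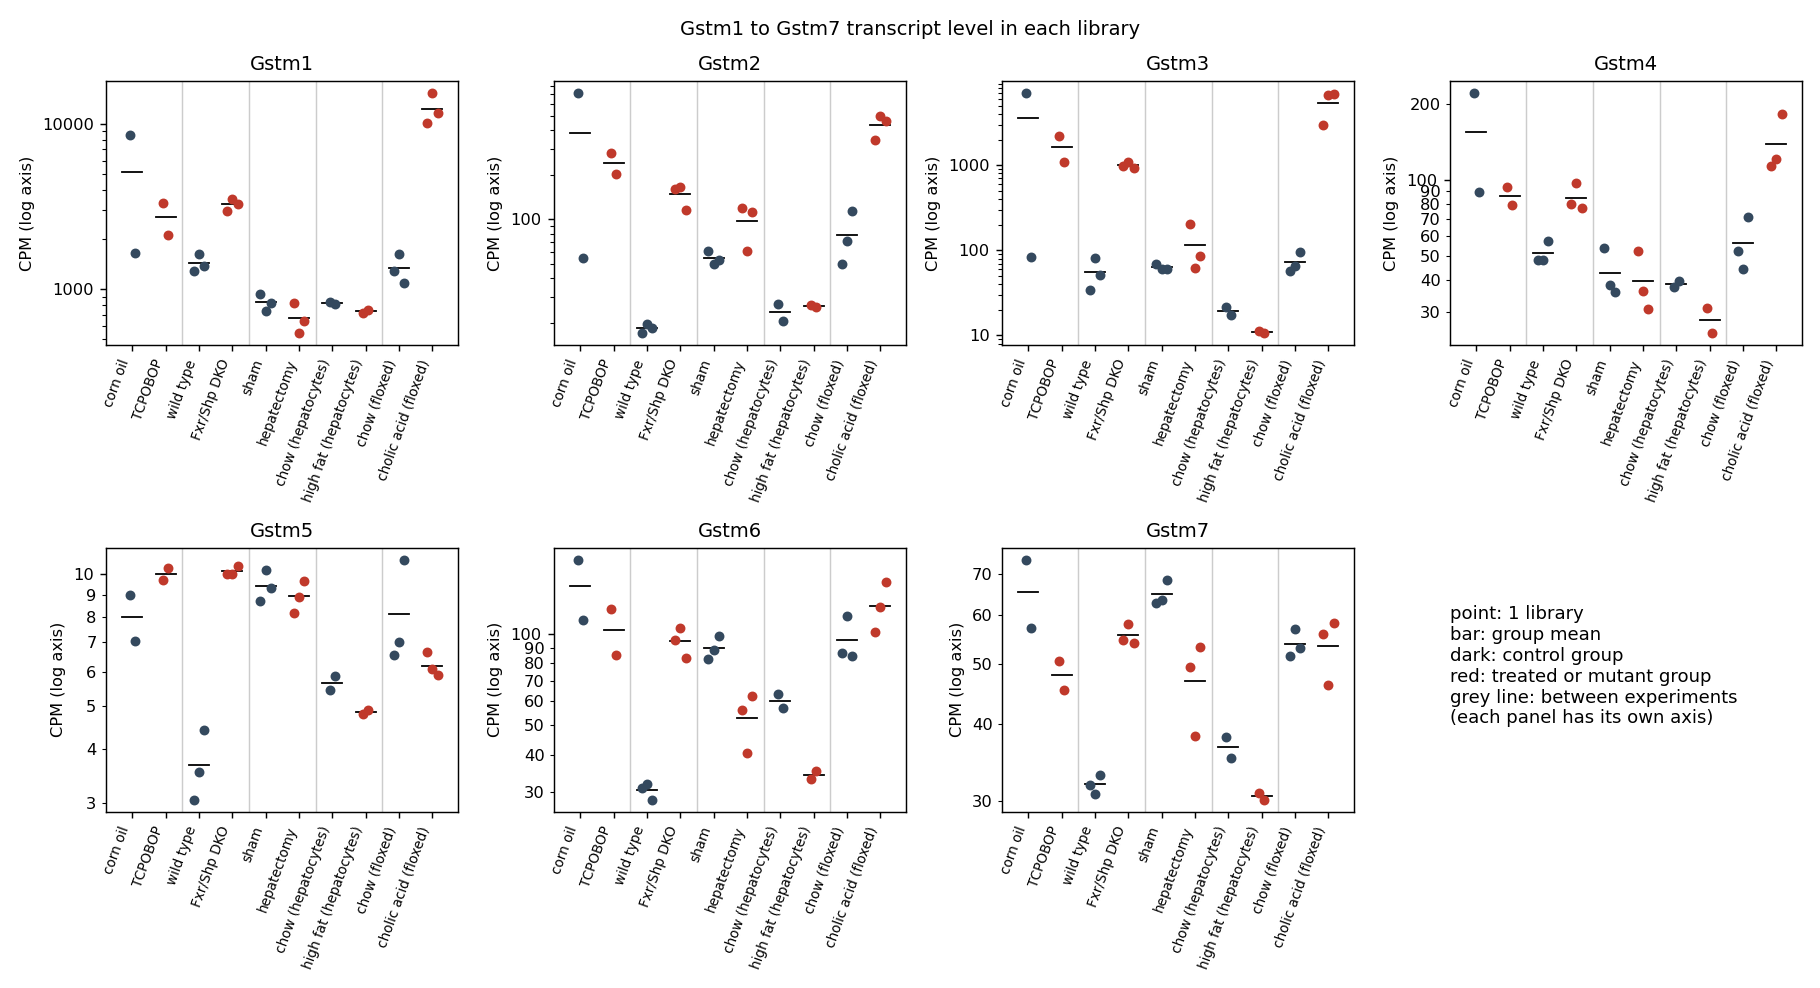
Level of each Gstm gene in CPM (log axis, a separate scale for each panel) in the 26 libraries, with group means as bars. Gstm3 spans the widest range, from 10.7 CPM on the high fat diet to 7045 CPM in corn oil 1, while Gstm7 stays between 30.2 and 73.9 CPM.

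CPM scales were set within each experiment and read alignment differed between experiments, as given above, so family levels compare only loosely between them. The summed level of the family was 1093 ± 142 and 1130 ± 166 CPM per kb (SD, n = 3 each) in the control livers of the knockout and cholic acid experiments. It was 765 ± 78.0 in sham livers (SD, n = 3) and 683 and 652 CPM per kb in the 2 libraries of chow hepatocytes. The libraries labelled corn oil 1 and corn oil 2 had 11902 and 1370 CPM per kb. With cholic acid the family reached 12964 ± 3283 CPM per kb (SD, n = 3) and took 1.47%, 2.32% and 2.10% of all gene reads, against 0.157%, 0.188% and 0.135% on chow.

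The make-up of the family shifted with the level of Gstm3. Gstm3 made up 23.8% to 38.2% of the family level per kb with cholic acid and 3.82% to 7.26% on chow in the floxed mice. Its share was 22.7% to 24.8% in the double knockout and 2.68% to 4.95% in wild type. It was 39.7% and 32.8% with TCPOBOP, and 45.2% and 4.68% in the libraries labelled corn oil 1 and corn oil 2. Gstm1 ranged from 49.0% of the family in corn oil 1 to 89.5% in wild type. These shares depend on the length used. The longest transcript has 1289 bases against an exon length of 1473 for Gstm1, and 1311 on both for Gstm3. With transcript lengths the shares of Gstm3 are lower.

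**Figure D2:**
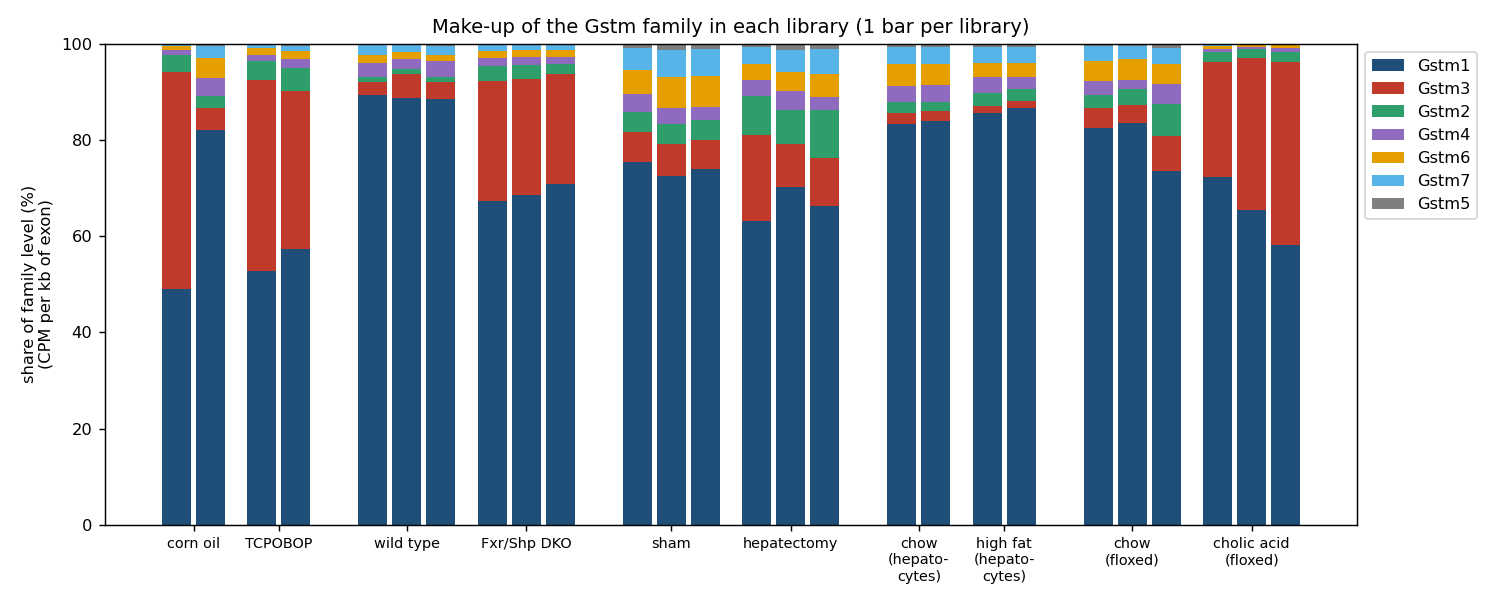
Share of each Gstm gene in the family level (CPM per kb of exon, %) in each library, 1 bar per library. Gstm3 holds 22.7% to 24.8% in the knockout and 23.8% to 38.2% with cholic acid, against at most 7.26% in their controls.

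Cholic acid feeding raised 4 of the 7 genes (Gstm1, Gstm2, Gstm3 and Gstm4), and all 4 had every cholic acid library above every chow library. Over all genes tested, 4.77% were called in either direction (2.27% raised, 2.5% lowered), and 15.5% had every cholic acid library higher and 15.7% each of them lower. The median log2 fold change was 1.31 over the 7 members and 0.01 over all 12577 genes tested. Gstm3, which CAR agonists are known to induce in mouse liver, was at 2943, 6606 and 6775 CPM with cholic acid and at 56.5, 66.1 and 96.3 CPM on chow. The groups are far apart, and cholic acid 1 is the lowest of the treated libraries. Gstm3 rose by a log2 fold change of 6.22 ± 0.432 (SE; edgeR adjusted p = 0.0019), 74.6-fold, which ranked 3 among the 12577 genes by size of rise.

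Gstm1 was at 10056, 15359 and 11580 CPM with cholic acid and at 1290, 1625 and 1096 CPM on chow. Gstm1 rose 9.22-fold, a log2 fold change of 3.21 ± 0.261 (SE; adjusted p = 0.0019). Gstm2, another mu class enzyme, was at 346, 498 and 464 CPM against 49.6, 71.0 and 114 CPM, a log2 fold change of 2.48 ± 0.318 (SE; adjusted p = 0.00801). Chow 3 was the highest control library for Gstm2, Gstm3, Gstm4 and Gstm5. Gstm4 was at 113, 121 and 183 CPM against 52.2, 44.4 and 71.1 CPM, and rose by 1.31 ± 0.252 on the log2 scale (SE; adjusted p = 0.0248). The call for Gstm4 was lost without chow 1, chow 2, cholic acid 2 or cholic acid 3, with adjusted p between 0.0642 and 0.101.

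Gstm6, Gstm7 and Gstm5, which are neighbours in the cluster, did not pass the test with cholic acid. Gstm6 was at 101, 122 and 148 CPM against 86.7, 114 and 84.4 CPM, a log2 fold change of 0.38 ± 0.200 (SE; adjusted p = 0.299). Gstm7 was at 55.97, 46.4 and 58.2 CPM against 51.6, 56.9 and 53.1 CPM, a log2 fold change of -0.01 ± 0.152 (SE; adjusted p = 0.978). Gstm5, whose human counterpart is best known from brain and testis, was at 6.64, 6.07 and 5.88 CPM against 6.53, 7.03 and 10.8 CPM, a log2 fold change of -0.39 ± 0.245 (SE; adjusted p = 0.376). All 3 genes had overlapping groups.

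Other glutathione genes were read from the same fit. Of 16 transferases of other classes tested, 4 rose and 1 fell. The alpha class genes Gsta1, Gsta4 and Gsta2 rose by 5.14, 2.27 and 2.14 on the log2 scale, and microsomal Mgst1 fell by 1.24. Of 27 genes of glutathione synthesis, recycling, breakdown and export, 2 rose and 1 fell. Those that rose were Gclc, the catalytic subunit of the rate-limiting enzyme of glutathione synthesis (log2 fold change 1.68), and Abcc2, a canalicular exporter of glutathione conjugates (0.84). Of 10 regulators and marker targets 4 rose and 0 fell: the CAR and PXR target Cyp2c55 by 4.57, the NRF2 targets Nqo1 and Srxn1 by 2.52 and 1.52, and Nr1i2, which encodes PXR, by 0.68. Cyp2b10 and Txnrd1 (log2 fold changes 2.65 and 0.51) did not pass the test (adjusted p = 0.214 and 0.156). Of the marker lists, hepatocyte, cholangiocyte, leukocyte and endothelial markers had no gene called and 1 of 5 stellate markers was raised. Hepatocyte markers summed to 89952 to 113979 CPM with cholic acid and to 89313 to 105170 CPM on chow.

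In the double knockout all 7 genes rose, each with every knockout library above every wild-type library. Over all genes tested, 40.4% were called in either direction (21% raised, 19.4% lowered), and 26.5% had every knockout library higher and 26.9% each of them lower. The median log2 fold change was 1.47 over the 7 members and -0.01 over the 13473 genes tested. Gstm3 was at 978, 1090 and 938 CPM in the knockout and at 34.2, 81.2 and 51.2 CPM in wild type. The knockout values lie close together, while wild type 2 was above wild type 1 and 3. Gstm3 rose 18.1-fold, by 4.18 ± 0.293 on the log2 scale (SE; edgeR adjusted p = 1.925e-05).

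Gstm2 was at 161, 166 and 116 CPM against 17.02, 19.6 and 18.3 CPM, a rise of 3.01 ± 0.152 on the log2 scale (SE; adjusted p = 2.885e-06). Reads of Gstm2 may be split with Gm6665, an annotated coding gene that shares 39 of its 50-base stretches and stood at 80.9 to 106 CPM in the knockout and 16.4 to 24.9 CPM in wild type. With the counts of Gm6665 added to Gstm2, the log2 fold change was 2.69 (adjusted p = 7.80e-06), an alternative chosen after seeing the data. Gstm1 was at 2980, 3489 and 3289 CPM against 1282, 1635 and 1377 CPM, a rise of 1.18 ± 0.131 on the log2 scale (SE; adjusted p = 0.000216). The processed pseudogene Gstm2-ps1, which shares 215 of the 50-base stretches of Gstm1, was at 258 to 288 CPM in the knockout and 100 to 111 CPM in wild type. With its counts added, the log2 fold change of Gstm1 was 1.20.

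The lower members also rose in the knockout. Gstm6 was at 95.3, 105 and 83.2 CPM against 31.1, 31.9 and 28.4 CPM, a rise of 1.63 ± 0.107 on the log2 scale (SE; adjusted p = 1.345e-05). Gstm5 was at 10.0, 10.0 and 10.4 CPM against 3.06, 3.54 and 4.41 CPM, a rise of 1.47 ± 0.166 (SE; adjusted p = 0.000248). Gstm7 and Gstm4 moved least. Gstm7 was at 54.8, 58.2 and 54.2 CPM against 31.9, 30.8 and 33.1 CPM, a rise of 0.80 ± 0.0810 (SE; adjusted p = 0.000135). Gstm4 was at 80.2, 97.2 and 77.3 CPM against 48.2, 48.3 and 57.1 CPM, a rise of 0.73 ± 0.116 (SE; adjusted p = 0.00148). The wild-type levels of Gstm2, Gstm5 and Gstm6 were below those of every other library in the series, on scales set within each experiment.

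Among 17 transferases of other classes tested in the knockout, 10 rose and 3 fell. Gsta1 and Mgst3 rose by 6.74 and 3.47 on the log2 scale. Gsta1 stood at 42.5 ± 11.2 CPM in the knockout against 0.396 ± 0.165 CPM in wild type (SD, n = 3 each). Mgst2 stood at 8.39 ± 4.38 CPM (SD, n = 3) against 0.0569 ± 0.0540 CPM (SD, n = 3). Gstp1, which encodes a pi class enzyme, fell by 2.11. Of 28 genes of glutathione synthesis, recycling, breakdown and export, 11 rose and 10 fell, with a median log2 fold change of -0.02. Pgd, an enzyme of the pentose phosphate pathway, rose by 1.68, and Nat8, which acetylates cysteine conjugates in mercapturic acid synthesis, fell by 4.27. Of 10 regulators and marker targets, 5 rose and 2 fell. Cyp2c55, Cyp2b10, Srxn1, Nqo1 and Nfe2l2 rose by 3.80, 2.87, 0.81, 0.73 and 0.65 on the log2 scale. Txnrd1, on the same list, did not pass the test (log2 fold change 0.037, edgeR adjusted p = 0.841). Nr1i3 itself fell by 1.04 and Ppara, the fatty acid receptor PPAR alpha, by 0.98.

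Other measures moved with the knockout. The share of reads aligned to more than 1 place was lower in the knockout than in wild type, as given above. Over all genes tested, 21% were raised and 19.4% lowered. Of 5 cholangiocyte markers 4 were raised (summed level 57.4 to 135 CPM in the knockout, 27.3 to 38.0 CPM in wild type), and none was at 0. Of 5 stellate markers 3 were raised (349 to 434 against 176 to 292 CPM), and of 5 hepatocyte markers 3 were lowered (59506 to 80365 against 82000 to 109379 CPM). Of 5 endothelial markers 2 were raised (112 to 164 against 61.0 to 113 CPM). Of 5 macrophage and leukocyte markers 1 was raised (136 to 285 against 94.3 to 195 CPM), near the share over all genes. The endothelial and the leukocyte sums overlapped between the groups. The part of these measures in the rise of the Gstm genes was not tested.

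**Figure D3:**
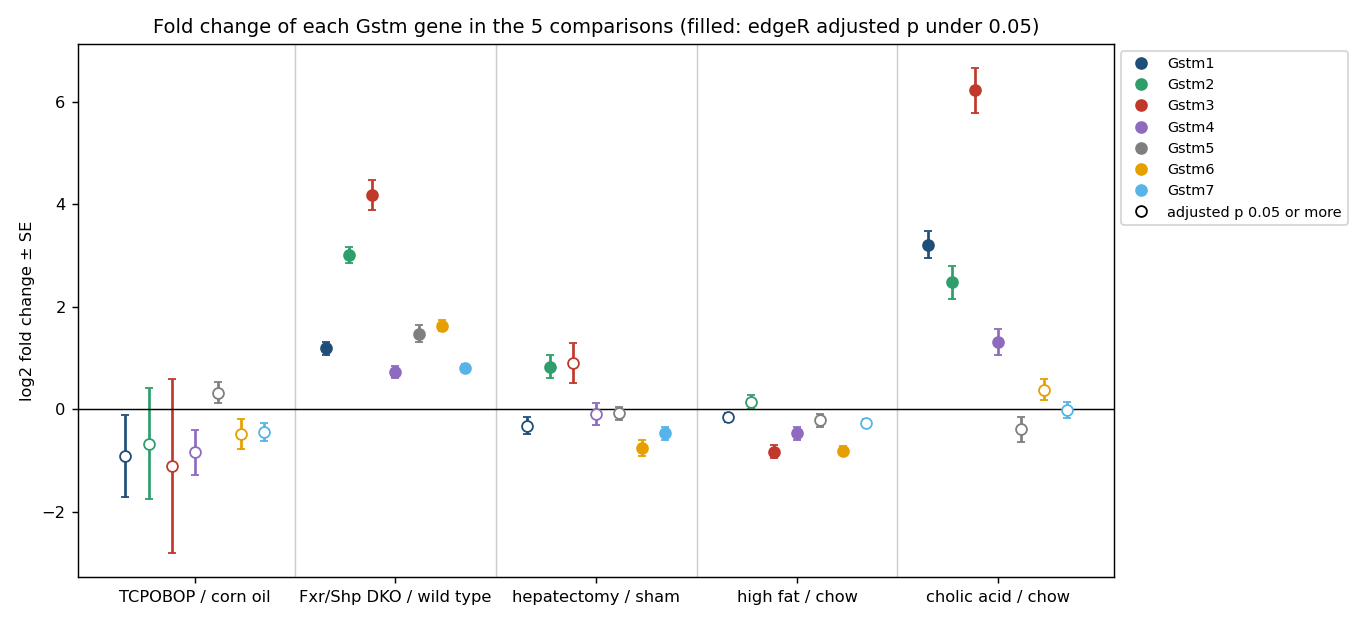
Log2 fold change ± SE of each Gstm gene in the 5 comparisons, filled where the edgeR adjusted p was under 0.05. All 7 points are filled and above 0 in the knockout, and 4 of 7 with cholic acid, where Gstm3 reaches 6.22.

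Whether the knockout and cholic acid effects differed was tested gene by gene in a joint fit of their 12 libraries. In that fit 13.9% of all 13935 genes were called (7.18% with a larger value in the knockout, 6.74% with a smaller), and 5 of the 7 members were called. The rise of Gstm1 was smaller in the knockout than with cholic acid, and so in this fit was that of Gstm3. The difference (knockout minus cholic acid, log2) was -2.02 ± 0.280 for Gstm1 (SE; adjusted p = 0.00076) and -2.04 ± 0.486 for Gstm3 (SE; adjusted p = 0.0153). In a single fit of all 26 libraries the difference for Gstm3 was -2.06 and was not called (adjusted p = 0.189). Gstm5, Gstm6 and Gstm7 went the other way. Their differences were 1.86 ± 0.296 (SE; adjusted p = 0.00153), 1.26 ± 0.232 (SE; adjusted p = 0.00382) and 0.82 ± 0.158 (SE; adjusted p = 0.00499). For Gstm2 the difference was 0.54 ± 0.368 (SE; adjusted p = 0.366) and for Gstm4 -0.58 ± 0.292 (SE; adjusted p = 0.215), neither of which passed the test. The experiments also differ in age, fasting, alleles and read alignment, which cannot be told apart from the difference in effect.

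**Figure D4:**
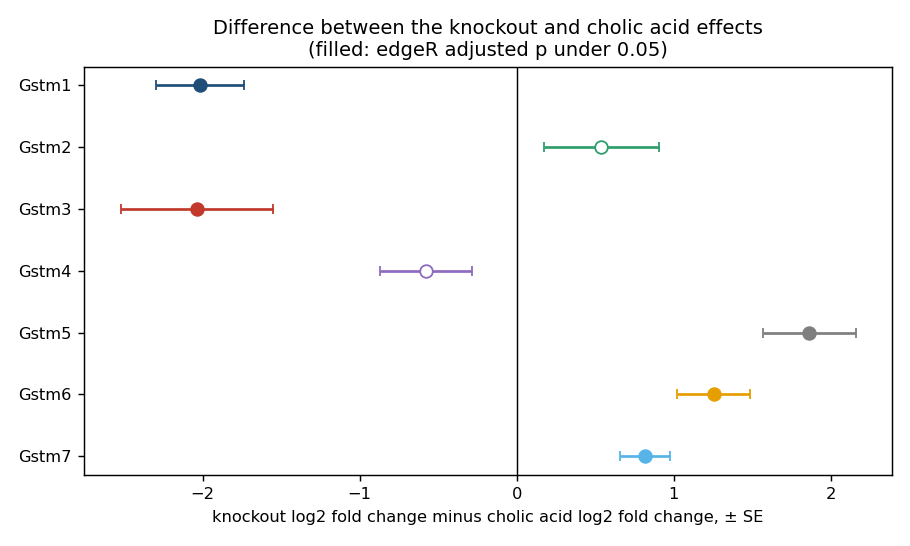
Knockout log2 fold change minus cholic acid log2 fold change for each Gstm gene, ± SE, filled where the edgeR adjusted p was under 0.05. Gstm1 and Gstm3 lie near -2, Gstm5, Gstm6 and Gstm7 lie between 0.82 and 1.86, and Gstm2 and Gstm4 are not called.

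After partial hepatectomy, 1 of the 7 genes rose and 2 fell, where 30.7% of all genes tested were called (16.4% raised, 14.3% lowered). The same 3 genes had groups that did not overlap, as did 24.4% of all genes on the higher side and 22.6% on the lower side. The median log2 fold change was -0.10 over the 7 members and 0.01 over all 13753 genes. Gstm6 was at 55.9, 40.6 and 62.2 CPM at 48 h and at 82.7, 88.5 and 98.2 CPM in sham livers, a fall with a log2 fold change of -0.76 ± 0.154 (SE; edgeR adjusted p = 0.0077). Gstm7 was at 49.5, 38.2 and 53.3 CPM against 62.9, 63.6 and 68.6 CPM, a log2 fold change of -0.47 ± 0.126 (SE; adjusted p = 0.0244). Hepatectomy 2 was the lowest library for Gstm6 and Gstm7. The call for Gstm7 was lost without sham 2 or sham 3 (adjusted p = 0.0706 and 0.0935).

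Gstm2 was at 119, 60.8 and 112 CPM after hepatectomy and at 60.8, 50.003 and 53.0 CPM in sham livers. The groups almost touch, at hepatectomy 2 and sham 1. Gstm2 rose by 0.83 ± 0.229 on the log2 scale (SE; edgeR adjusted p = 0.0272), and the call was lost without sham 2, sham 3, hepatectomy 1 or hepatectomy 3 (adjusted p 0.0549 to 0.100) and in a single fit of all 26 libraries (adjusted p = 0.251). Gstm3 was at 205, 61.3 and 85.3 CPM against 68.9, 60.3 and 59.6 CPM, a log2 fold change of 0.90 ± 0.387 (SE; adjusted p = 0.116). The groups overlap, and hepatectomy 1 is far above the rest for Gstm3. Without hepatectomy 1 the log2 fold change of Gstm3 was 0.22, and without hepatectomy 2 it was 1.20 (adjusted p = 0.0342).

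Gstm1, Gstm4 and Gstm5 did not pass the test after hepatectomy. Gstm1 was at 819, 543 and 645 CPM against 941, 737 and 826 CPM, a log2 fold change of -0.32 ± 0.158 (SE; adjusted p = 0.163), which became -0.49 (adjusted p = 0.036) without hepatectomy 1. Gstm4 was at 52.3, 36.3 and 30.7 CPM against 53.4, 38.3 and 35.9 CPM, and Gstm5 at 8.16, 8.90 and 9.68 CPM against 8.69, 10.2 and 9.32 CPM. Their log2 fold changes were -0.10 ± 0.218 and -0.08 ± 0.124 (SE; adjusted p = 0.771 and 0.671). Of 16 other transferases, 4 rose and 5 fell. Gsta1 and Gsta2 were up by 4.12 and 1.49 on the log2 scale and Gstt2 was down (log2 fold change -0.995). Gsta1 was low in both groups, at 7.87 ± 6.18 CPM at 48 h and 0.448 ± 0.0937 CPM in sham livers (SD, n = 3 each). Of 27 other glutathione genes 3 rose and 9 fell. Of 10 regulators and marker targets, Nfe2l2 rose by 0.48 on the log2 scale (adjusted p = 0.0496), and Nr1i2 and Nr1i3 fell by 0.73 and 0.71. For the cell markers, the share over all genes tested was 16.4% raised and 14.3% lowered. Of 5 hepatocyte markers 3 were lowered (summed level 89043 to 101523 CPM at 48 h, 120031 to 123371 CPM in sham). Of 5 endothelial markers 1 was lowered (165 to 171 against 161 to 227 CPM). Of 5 cholangiocyte markers 1 was raised (23.7 to 35.4 against 25.7 to 41.4 CPM), as was 1 of 5 stellate markers (145 to 156 against 125 to 170 CPM), and no leukocyte marker was called. The part of these cells in the changes of Gstm2, Gstm6 and Gstm7 was not tested.

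In isolated hepatocytes 24% of all genes tested were called on the high fat diet (12.9% raised, 11.1% lowered). The diet lowered Gstm3, Gstm4 and Gstm6 and raised none of the 7. All but Gstm2 had each high fat library below each chow library, as did 33% of all genes with 2 libraries a group (35.1% had each of them higher). The median log2 fold change was -0.26 over the 7 members and 0.01 over all 13892 genes. Gstm6 was at 33.3 and 35.2 CPM on the high fat diet and at 63.3 and 56.7 CPM on chow, a log2 fold change of -0.81 ± 0.0892 (SE; edgeR adjusted p = 0.00544). Gstm3 was at 11.2 and 10.7 CPM against 21.4 and 17.5 CPM, a log2 fold change of -0.83 ± 0.128 (SE; adjusted p = 0.0117). Gstm4 was at 31.0 and 24.7 CPM against 37.5 and 39.7 CPM, a log2 fold change of -0.47 ± 0.123 (SE; adjusted p = 0.043). The call for Gstm4 was lost without chow 1, chow 2 or high fat 2 (adjusted p 0.0545 to 0.117), fits in which the lone library is assumed to vary like the other group. In a single fit of all 26 libraries, which share 1 estimate of the spread, Gstm6 was still called, and the calls for Gstm3 and Gstm4 were lost (adjusted p = 0.649 and 0.438).

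Gstm1 was at 722 and 751 CPM on the high fat diet and at 838 and 807 CPM on chow, a log2 fold change of -0.16 ± 0.0847 (SE; edgeR adjusted p = 0.214). Gstm7 (30.9 and 30.2 against 38.1 and 35.2 CPM) and Gstm5 (4.81 and 4.90 against 5.44 and 5.85 CPM) did not pass the test either, with log2 fold changes of -0.26 ± 0.0814 and -0.22 ± 0.132 (SE; adjusted p = 0.0647 and 0.27). Gstm2 was at 26.4 and 25.7 CPM against 26.7 and 20.5 CPM, a log2 fold change of 0.14 ± 0.136 (SE; adjusted p = 0.474). Of 16 transferases of other classes, 8 rose and 2 fell in the same libraries, where 12.9% of all genes were raised and 11.1% lowered. Gsta1, Gsta2 and Mgst3 rose by 3.45, 1.41 and 1.33 on the log2 scale, and Gstp2 and Gstp1 fell by 3.67 and 1.88. Gsta1 was low in both groups, at 6.78 ± 2.58 CPM on the high fat diet and 0.612 ± 0.361 CPM on chow (SD, n = 2 each). Of 26 other glutathione genes 4 rose and 2 fell. Of 10 regulators and marker targets, Nqo1 and Srxn1 rose by 1.34 and 0.52, and Cyp2b10 and Cyp2c55 fell by 3.11 and 2.06. Txnrd1 did not pass the test (log2 fold change -0.20, edgeR adjusted p = 0.1375).

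Markers of other liver cells also moved with the diet in these hepatocyte preparations, where 12.9% of all genes were raised and 11.1% lowered. All 5 endothelial markers were raised (summed level 85.3 to 87.7 CPM on the high fat diet, 34.6 to 36.7 CPM on chow), as were 4 of 5 leukocyte markers (34.9 to 38.1 against 20.5 to 22.2 CPM) and 4 of 5 stellate markers (33.2 CPM in both libraries against 8.60 to 14.5 CPM). Of 5 hepatocyte markers 2 were lowered, with sums of 80792 to 80842 CPM against 79619 to 82497 CPM. Krt19 and Epcam, markers of cholangiocytes, were at 0 on chow. The part of these cells in the lower Gstm levels was not tested.

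The TCPOBOP comparison called 0 of the 7 genes, and 0 of 12785 genes in all (0% called; 751 genes at an unadjusted p under 0.05, none of them a Gstm gene; DESeq2 called 109 genes). Its control libraries disagree, and no direction is drawn from it. For Gstm3 the libraries labelled corn oil 1 and 2 gave 7045 and 84.1 CPM, and those labelled TCPOBOP gave 2230 and 1077 CPM. Gstm2 was at 715 and 55.1 CPM against 281 and 202 CPM, and Gstm1 at 8590 and 1656 CPM against 3334 and 2116 CPM. For all 3 genes the TCPOBOP libraries lie between the libraries labelled corn oil. Gstm4 was at 220 and 89.0 CPM against 93.5 and 79.3 CPM, with TCPOBOP 1 between the libraries labelled corn oil and TCPOBOP 2 below both.

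Without the library labelled corn oil 1, the log2 fold change with TCPOBOP was 4.30 for Gstm3 (edgeR adjusted p = 0.00103), 2.14 for Gstm2 (adjusted p = 0.000804) and 0.72 for Gstm1 (adjusted p = 0.159), and 1233 genes were called. Without the library labelled corn oil 2 the log2 fold changes were -2.09 for Gstm3 (adjusted p = 0.018), -1.56 for Gstm2 (adjusted p = 0.00435) and -1.65 for Gstm1 (adjusted p = 0.0152), and Gstm4 was also lower, at -1.35 (adjusted p = 0.00186). In both fits the lone control library is assumed to vary like the TCPOBOP libraries. With all 4 libraries the log2 fold change of Gstm3 was -1.11 ± 1.69 (SE; adjusted p = 0.975). Gstm5 (8.98 and 7.04 CPM in corn oil 1 and 2, 9.70 and 10.4 CPM with TCPOBOP), Gstm6 (175 and 111 against 121 and 84.8 CPM) and Gstm7 (73.9 and 57.2 against 50.6 and 45.5 CPM) differed less between the 2 libraries labelled corn oil. Gstm5 was higher in both TCPOBOP libraries, as were 16.8% of all genes, and Gstm7 lower in both, as were 18.7%.

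Genes whose levels followed a member most closely were ranked by the root mean square difference of log2(CPM + 1), centred within each experiment, over 26 libraries and 11104 genes. These distances describe libraries that share depth and treatment, and no test was made. The 3 nearest to Gstm3 were Cyp2c55 (0.70), Akr1b7 (0.96) and Gsta1 (1.02), where Gstm3 itself spread by 2.06 around its experiment means. The libraries include the one labelled corn oil 1, with Gstm3 at 7045 CPM and Cyp2c55 at 1603 CPM. Corn oil 2 had 84.1 and 17.2 CPM. Nearest to Gstm1 were Gstm2-ps1 (0.14), which shares its sequence, Gsta4 (0.43) and the organic anion transporter Slco1a4 (0.50), against a spread of 0.91. Gstm2 was nearest to Clcf1 (0.46), and Gstm4 to Slc48a1 (0.26), with spreads of 1.11 and 0.48. Gstm5 was nearest to the mitochondrial peroxiredoxin Prdx3 (0.16), with a spread of 0.35. Gstm6 was nearest to Atg16l2 (0.24) and then to its neighbour in the cluster, Gstm7 (0.28), with a spread of 0.51.

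The promoter windows of the 7 genes (RefSeq, GRCm38.p6, 300 bases around each annotated start) were searched on both strands for TGACNNNGC, the core of the antioxidant response element, and AGGTCA, the nuclear receptor half-site. The searches were independent of each other. TGACNNNGC occurred in 12.4% of 32851 mouse windows, and among the members only at Gstm5 and at 1 of the starts of Gstm7. AGGTCA occurred in 16.3% of all windows, and among the members only at 1 of the starts of Gstm1. The windows of Gstm2, Gstm3, Gstm4 and Gstm6 held neither string, which says only that these letters are not in these windows.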

How the data were processed

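The deposited file holds raw read counts per gene for the 26 libraries, in 47643 gene rows and 5 summary rows that were left out of library sizes. Per the labels' protocols, RNA was extracted with a column kit and libraries were made with a stranded mRNA kit. The submitters' processing notes name bcl2fastq 2.17.1.14, Trimmomatic, STAR 2.4.2a, Picard 1.119, HTSeq and the build GRCm38 (mm10), with no order. Read length, annotation release and strand setting are not given in the sources used here. Reads aligned to more than 1 place were 16.6% to 44.1% of all reads, ambiguous reads 1.02% to 3.73% and reads in no gene 3.19% to 5.37%.

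Groups came from the sample titles, and each treated group was fitted with its own control. Genes were filtered with filterByExpr (minimum count 10, minimum total 15) and scaled by TMM. The test was the quasi-likelihood F test of edgeR 4.0.16 under R 4.3.3 with limma 3.58.1, with Benjamini-Hochberg adjustment over all genes tested and a threshold of 0.05. Each SE is the absolute log2 fold change over the square root of F. CPM per kb uses the exon length of GENCODE M21. All 7 members passed the filter in every comparison. Depth was 13949059 to 70367874 gene reads, and 3 counts, taken as the floor, are 0.0426 to 0.215 CPM, for counting error only.

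All 7 members are named, and from 3 lists (other transferases, 19 genes in the table; other glutathione genes, 30; regulators and targets, 10) up to 3 called rises and 3 called falls in each comparison, while regulators and targets could be named whether called or not. The members and lists were chosen with earlier results of these data known. The results were recomputed with the Wald test of DESeq2 1.42.0, with its size factors in edgeR, without a filter, with a minimum mean count of 10, with a replicate block, with each library left out, with all 26 libraries in a single fit, with other length and CPM scales, with a pseudocount of 0.25 in place of 1 and, added after seeing the data, the counts of related rows added to Gstm1 and Gstm2.

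On simulated counts with a seeded log2 change of 1.5, the procedure recovered 98.5% of changed genes for the knockout (13453 genes run). Recovery was 97.4% for hepatectomy (13726), 96.9% for cholic acid (12572) and 91.8% for high fat (13836). It was 80.8% for TCPOBOP (12781) and 78.5% for the difference between effects (13691). The simulated counts had the same set spread between libraries in every comparison, and 3 to 12 unchanged genes were called. In the real libraries the common coefficient of biological variation was 13.1% (high fat) to 26.4% (cholic acid). These shares therefore do not measure recovery in the real libraries.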

Additional observations from a re-analysis of the deposited data

Results flagged for a closer look

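These rows are not Gstm members but share sequence or position with them, and each rose in a comparison by edgeR. The processed pseudogene Gstm2-ps1, which shares sequence with Gstm1 and Gstm3, rose by a log2 fold change of 1.39 in the knockout (adjusted p = 1.504e-05) and of 3.06 with cholic acid (adjusted p = 0.0019). Its level was 100 to 288 CPM in the knockout experiment and 0.708 to 48.5 CPM in all other libraries. Gm6665, which shares sequence with Gstm2, rose by 2.31 in the knockout (adjusted p = 2.708e-05) and by 2.37 with cholic acid (adjusted p = 0.042). The cholic acid rise rests on few reads, 45, 55 and 47 counts against 2, 6 and 12 on chow, near the floor of 3 counts. It stood at 16.4 to 106 CPM in the knockout experiment and at no more than 3.41 CPM elsewhere. 4933431E20Rik, whose exons overlap Gstm5 on the opposite strand, rose by 0.74 after hepatectomy (3.75 ± 0.364 against 2.24 ± 0.300 CPM, SD, n = 3; adjusted p = 0.0171), where Gstm5 was not called. Whether reads of the members were counted in these rows was not tested.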

How the results depend on the processing

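All 7 Gstm genes in the knockout, and Gstm1, Gstm2 and Gstm3 with cholic acid, kept their direction and their call under every alternative run. Gstm4 in the knockout came nearest to losing its call, with a highest adjusted p of 0.0491 over the alternatives. None of the alternatives changed how reads aligned to more than 1 place were handled. The number of genes called over the whole table moved more. For TCPOBOP it was 109 with DESeq2, 9 with all 26 libraries in a single fit and 0 to 1233 with a library left out. For cholic acid it was 1445 with DESeq2, 955 with no filter, 3132 in the single fit and 189 to 1345 with a library left out. For high fat it was 1735 in the single fit and 1141 to 2644 with a library left out, and for hepatectomy 2554 to 4217 with a library left out. The number of Gstm genes called ranged from 0 to 4 for TCPOBOP and from 1 to 4 for hepatectomy with a library left out, and was 1 for high fat in the single fit. In that single fit the calls were lost for Gstm2 after hepatectomy (adjusted p = 0.251), for Gstm3 and Gstm4 on the high fat diet (0.649 and 0.438) and for the difference in Gstm3 between knockout and cholic acid (0.189). The cause was not tested.

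With a library left out, signs turned in TCPOBOP, where the log2 fold change ranged from -1.65 to 0.72 for Gstm1, from -1.56 to 2.14 for Gstm2 and from -2.09 to 4.30 for Gstm3. Values near 0 also crossed it: Gstm4 after hepatectomy ranged from -0.34 to 0.10, Gstm2 on the high fat diet from -0.043 to 0.34 and Gstm7 with cholic acid from -0.071 to 0.084, and Gstm7 was 0.0083 with no filter. With longest transcript lengths the family level was 1252 CPM per kb in wild type, 3606 in the knockout, 904 in sham, 781 and 676 in chow and high fat hepatocytes and 1326 in chow-fed floxed mice. On plain CPM it was 3430 in the knockout, and 638 and 607 in the chow and high fat hepatocytes.

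The main fits did not pair libraries by the replicate numbers in the titles. Correlations of same-numbered deviations were -0.222 to 0.0174 in the knockout, -0.0794 to 0.139 in hepatectomy and 0.0844 to 0.165 with cholic acid. With cholic acid the differently numbered ones were -0.114 to -0.0292, so pairing is not excluded there. The TCPOBOP and high fat experiments have 2 numbers each and gave 0.149 and 0.148. Centring makes the same-numbered values equal there, so they cannot decide on pairing. With the replicate block, 4 Gstm genes were called after hepatectomy, because Gstm1 passed (-0.33, adjusted p = 0.0461). In TCPOBOP the block turned Gstm2 to 0.26 and Gstm3 to 1.00, neither called. It called 7 Gstm genes in the knockout, 4 with cholic acid and 3 on the high fat diet, as without it.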
